A study of Homo sapiens with 3 samples.

Results

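The genes described here are 36 genes of the G2 phase and mitosis, namely the mitotic kinases and cyclins, the kinesin motors, the kinetochore and spindle proteins and the spindle checkpoint. They were taken by name from a deposited table of 34520 gene rows, and each of the 36 names matched a single row. The cells were SK-N-BE(2), a human neuroblastoma cell line known for amplified MYCN. They were harvested as control cells or 12 h after arsenic trioxide (ATO) was given at 2 µM or at 4 µM, and what the control cells received is not given in the sources used here. A single RNA-seq library stands for each of these groups. The values therefore carry no replicate check, SD, SE or p-value. The unit is FPKM as the authors deposited it, a fragment count scaled to transcript length and library size, so genes are compared per length. Folds are log2 ratios of FPKM + 1, and the size rule asks for a log2 fold of 1 or more in either direction. All 36 genes passed the filter of 1 FPKM averaged over the libraries, as did 12433 rows in all.

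Cells enter mitosis when CDK1 bound to cyclin A or cyclin B becomes active, with the Aurora and Polo kinases acting beside it. Kinetochores then attach the chromosomes to the spindle, and the spindle checkpoint holds back the ubiquitin ligase APC/C until every chromosome is attached. Most of these genes are transcribed late in the cell cycle. Their promoters are known for boxes bound by NF-Y and for the cell cycle genes homology region (CHR), bound by the MuvB core, which activates with B-MYB and FOXM1 and represses as part of the DREAM complex. In RNA from a whole culture, fewer cells in G2 and mitosis and less of each transcript per cell cannot be told apart.

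The promoters of the members that the results turn on are shown because those motifs can be read in them. They are the 250 bases before the RefSeq start site on build GRCh38.p14, 5′ to 3′ on the gene's strand, with matches on either strand in capitals. The first motif is the NF-Y box CCAAT. The CHR was searched as TTTGAA, and in a rarer form as TTCGAA, and no other form of it was searched. On the opposite strand the NF-Y box reads ATTGG, while a CHR match reads TTCAAA there. The genes are TOP2A (chr17:40417897-40418146, minus strand), MAD2L1 (chr4:120066849-120067098, minus strand), DLGAP5 (chr14:55191586-55191835, minus strand) and KIF20A (chr5:138178862-138179111, plus strand), which had the lowest log2 folds at 4 µM, then AURKB (chr17:8210226-8210475, minus strand) and both B cyclins, CCNB1 (chr5:69166900-69167149, plus strand) and CCNB2 (chr15:59104896-59105145, plus strand).
TOP2A: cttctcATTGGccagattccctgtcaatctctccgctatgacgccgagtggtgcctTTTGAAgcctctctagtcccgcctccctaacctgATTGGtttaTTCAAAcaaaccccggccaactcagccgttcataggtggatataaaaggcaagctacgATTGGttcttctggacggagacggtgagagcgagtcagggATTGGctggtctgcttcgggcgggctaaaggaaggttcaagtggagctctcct
MAD2L1: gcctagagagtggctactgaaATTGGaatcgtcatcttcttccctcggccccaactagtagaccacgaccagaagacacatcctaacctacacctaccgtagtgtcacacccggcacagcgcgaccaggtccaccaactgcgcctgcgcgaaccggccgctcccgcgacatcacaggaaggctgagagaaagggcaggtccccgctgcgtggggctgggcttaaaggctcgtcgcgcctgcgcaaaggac
DLGAP5: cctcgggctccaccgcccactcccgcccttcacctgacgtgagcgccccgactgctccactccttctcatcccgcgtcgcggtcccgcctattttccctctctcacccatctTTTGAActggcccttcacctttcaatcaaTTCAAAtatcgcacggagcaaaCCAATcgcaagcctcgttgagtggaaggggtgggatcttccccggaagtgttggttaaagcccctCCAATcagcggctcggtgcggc
KIF20A: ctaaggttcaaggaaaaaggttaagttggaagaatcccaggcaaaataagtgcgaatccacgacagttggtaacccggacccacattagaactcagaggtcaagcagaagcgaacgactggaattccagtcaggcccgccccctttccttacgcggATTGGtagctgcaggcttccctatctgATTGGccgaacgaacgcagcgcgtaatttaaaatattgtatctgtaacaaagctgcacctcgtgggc
AURKB: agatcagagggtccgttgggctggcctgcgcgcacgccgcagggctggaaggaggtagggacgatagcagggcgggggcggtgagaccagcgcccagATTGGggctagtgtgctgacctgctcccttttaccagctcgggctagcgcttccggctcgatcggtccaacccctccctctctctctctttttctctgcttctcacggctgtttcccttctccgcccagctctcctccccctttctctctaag
CCNB1: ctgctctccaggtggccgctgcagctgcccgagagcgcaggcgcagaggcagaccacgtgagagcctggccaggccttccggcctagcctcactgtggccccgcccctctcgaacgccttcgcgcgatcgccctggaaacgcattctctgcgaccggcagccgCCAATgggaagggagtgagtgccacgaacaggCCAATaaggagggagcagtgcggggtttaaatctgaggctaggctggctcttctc
CCNB2: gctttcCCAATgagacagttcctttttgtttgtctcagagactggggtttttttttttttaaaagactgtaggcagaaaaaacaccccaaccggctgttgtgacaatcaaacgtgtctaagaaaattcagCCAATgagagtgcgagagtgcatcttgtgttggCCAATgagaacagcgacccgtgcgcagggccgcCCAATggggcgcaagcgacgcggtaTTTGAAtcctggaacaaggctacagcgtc

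In CCNB2 the CCAAT boxes began 244, 120, 87 and 54 bases before the start, with a CHR match at 29 before it. In CCNB1 they began at 87 and 55 before it, and neither searched form of the CHR lay in the window. TOP2A held CCAAT in reverse at 53, 93, 160 and 244 bases before the start. The CHR match of MAD2L1 lay 24 bases after the start, outside the bases printed.

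RefSeq's promoter table held windows of 250 bases before to 50 after the start for 31 of the 36 genes, and AURKA, BIRC5, TPX2, TTK and UBE2C had no entry. CCAAT on either strand was present for 25 of the 31 genes (80.6%), against 39.7% of all 27305 genes in the table and 34.6% of its 35116 windows. TTTGAA or TTCGAA, the searched forms of the CHR, was present for 24 of them (77.4%), against 19.5% of all genes and 16.4% of all windows. Both kinds of match stood in the same window for 20 genes (64.5%), against 7.85% of all genes and 6.38% of all windows. The GC-rich word GGCGG was in the windows of all 31, but also in those of 61.5% of all genes and in 59.0% of all windows. A pair of CCAAT boxes 31 to 34 bases apart, a spacing looked for after the sequences were seen, was found in CCNB1, CCNB2, CDK1 and HMMR. These are 12.9% of the members, against 1.57% of all genes and 1.30% of all windows. CCNB1 and CCNB2 were among the sequences seen, so the members' share is not independent of that choice. The CDK1 pair lay in a window other than its first listed one. A match describes the letters and not a bound site.

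**Figure D1:**
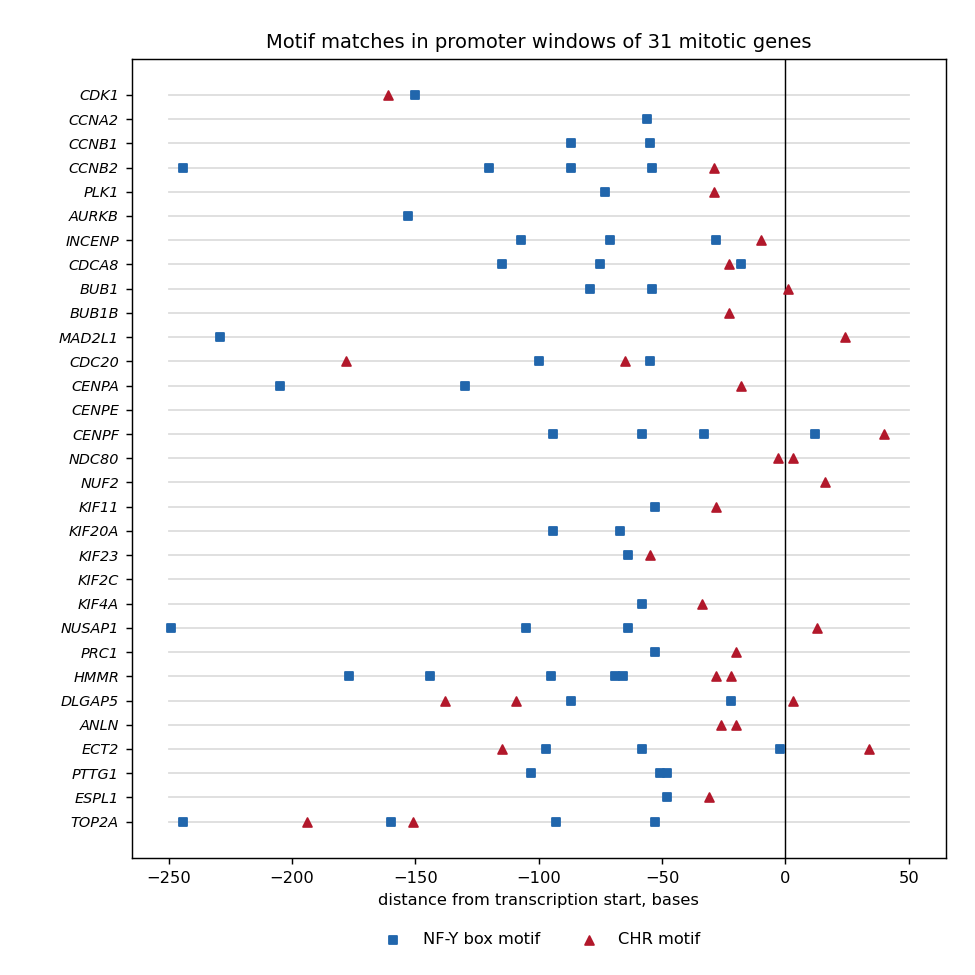
Motif matches in the first listed RefSeq promoter window of each of 31 members. The horizontal axis is the distance from the transcription start in bases, squares mark CCAAT boxes and triangles CHR matches. Of 54 box matches 38 began between 100 bases before and 50 after the start, with a median position of -74, and of 32 CHR matches 25 did, with a median position of -24.

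Control cells carried these transcripts at high levels. The lowest, median and highest of the 36 were 8.24, 28 and 107 FPKM, against a median of 6.34 FPKM for all considered rows, and 10.1% of those rows were at or above the members' median. At 2 µM the lowest, median and highest were 8.60, 28 and 84.4 FPKM, and at 4 µM they were 5.81, 20.4 and 58.0 FPKM. All 36 lay above the median of considered rows in each library. Summed, the members had 1229 FPKM in control cells, 1202 FPKM at 2 µM and 846 FPKM at 4 µM. The control order was led by TOP2A (107 FPKM), TPX2 (82.5 FPKM), CCNB1 (73.2 FPKM), UBE2C (68.5 FPKM) and CENPF (62.0 FPKM), and NDC80 and ESPL1 (11.5 FPKM) were lowest. At 4 µM UBE2C (58.0 FPKM) and TPX2 (57.8 FPKM) were highest, and TOP2A (54.0 FPKM) was next. Without replicates, neighbours this close cannot be ordered.

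**Figure D2:**
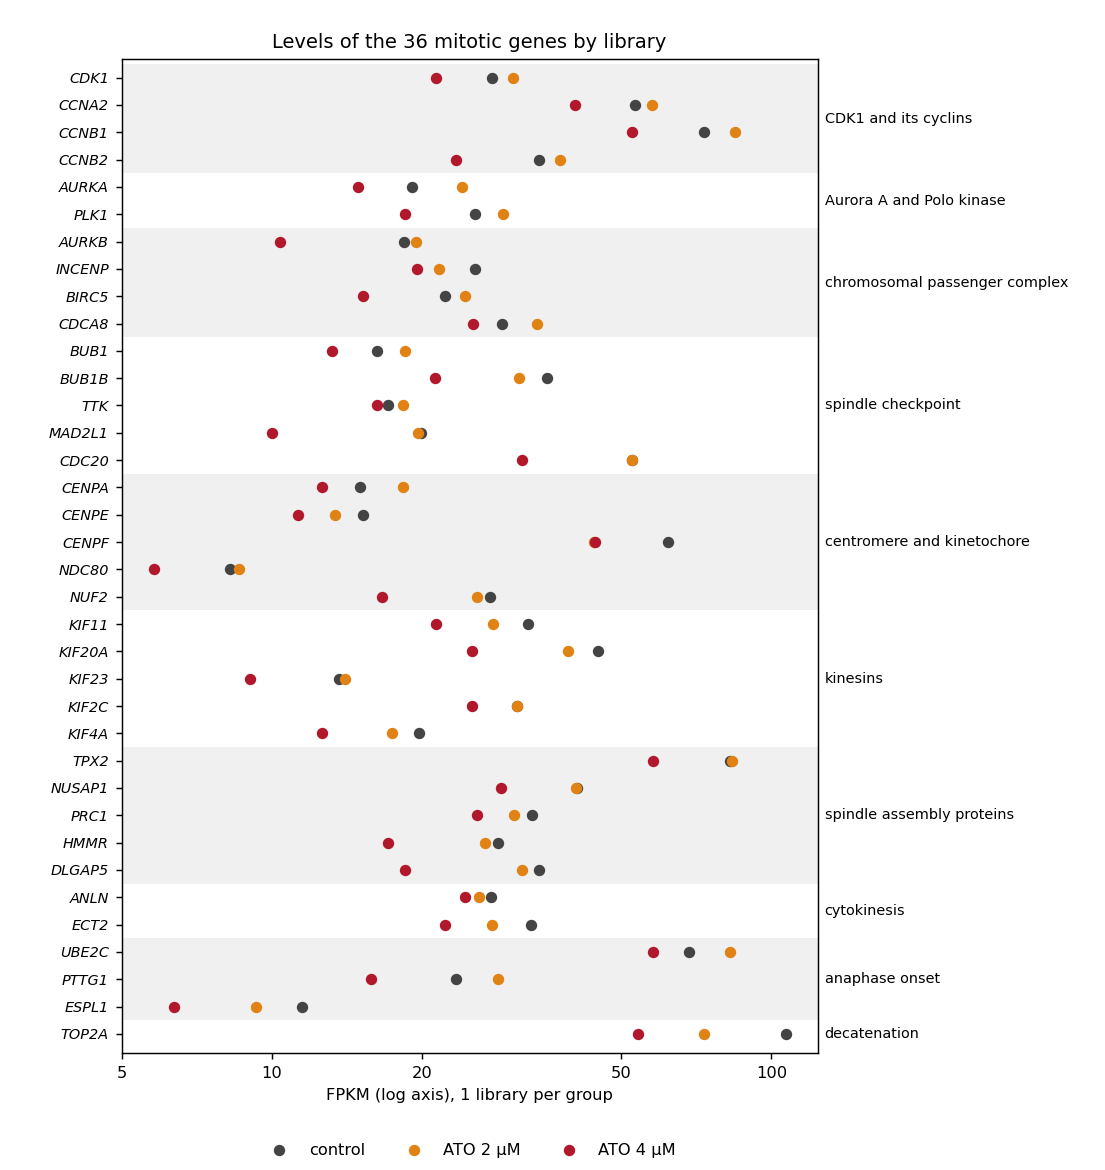
FPKM of the 36 members (log axis) in control, 2 µM and 4 µM cells, 1 point per library, with the members grouped by role. The 4 µM point is the lowest of the 3 for each member but CENPF, which had 44.2 FPKM at 2 µM and 44.4 FPKM at 4 µM.

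At 4 µM against control, 36 of 36 members had a log2 fold below 0, where 59.9% of all considered rows did. TTK turned positive with median-of-ratios scaling (0.08), upper-quartile scaling (0.11) and a correction for length and GC content (0.02), and ANLN with upper-quartile scaling (0.01). The median was -0.50 and the range -0.97 to -0.07, against a median of -0.13 for all rows. None of the 36 passed the size rule, which 9.46% of all rows passed (5.27% lower and 4.19% higher), and 40.1% of all rows were above 0 against 0 members. With a smaller size of 0.5, chosen after the values were seen, 18 members were lower and 0 higher, 50% against 22.1% of all rows lower (13% were higher). After median-of-ratios scaling the lower members numbered 10 (27.8%) against 16.0% of all rows, and after upper-quartile scaling 9 (25%) against 14.7%. Counting error was small beside the median. If 2 counted units make a fragment, the shallowest value rested on about 224 fragments, and the counting error of a member's log2 fold was 0.02 to 0.13, which leaves out all variation between cultures.

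At 2 µM against control the members went both ways, with 18 below and 18 above 0. Their median was 0.00056 and the range -0.54 to 0.31, against a median of 0.01 for all rows, of which 48.4% were below and 51.6% above 0. No member passed the size rule, which 2.06% of all rows passed (0.901% lower and 1.16% higher). As deposited only TOP2A was beyond 0.5, a size at which 6.04% of all rows were lower and 6.52% higher. After the correction for length and GC content 0 members were lower by 0.5, against 5.33% of all rows. Rescaled to TPM, 2 members (5.56%) were, against 13.5%. At 4 µM against 2 µM, which shares the 4 µM library with the first comparison, 35 of 36 members were below 0, against 63.0% of all rows below and 37.0% above 0. The exception was CENPF (0.0056, and -0.13 after the correction for length and GC content), while INCENP (0.01) and ANLN (0.06) also turned positive under either scaling between libraries. The median was -0.50 against -0.12 for all rows, and 0 members passed the size rule, against 2.48% of all rows (1.34% lower and 1.14% higher). At a size of 0.5 there were 19 members lower (52.8%) and 0 higher, against 14.3% and 6.39% of all rows. The lower members numbered 8 (22.2%) after median-of-ratios scaling, upper-quartile scaling or the correction for length and GC content, against 7.99%, 8.06% and 7.09% of all rows.

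**Figure D3:**
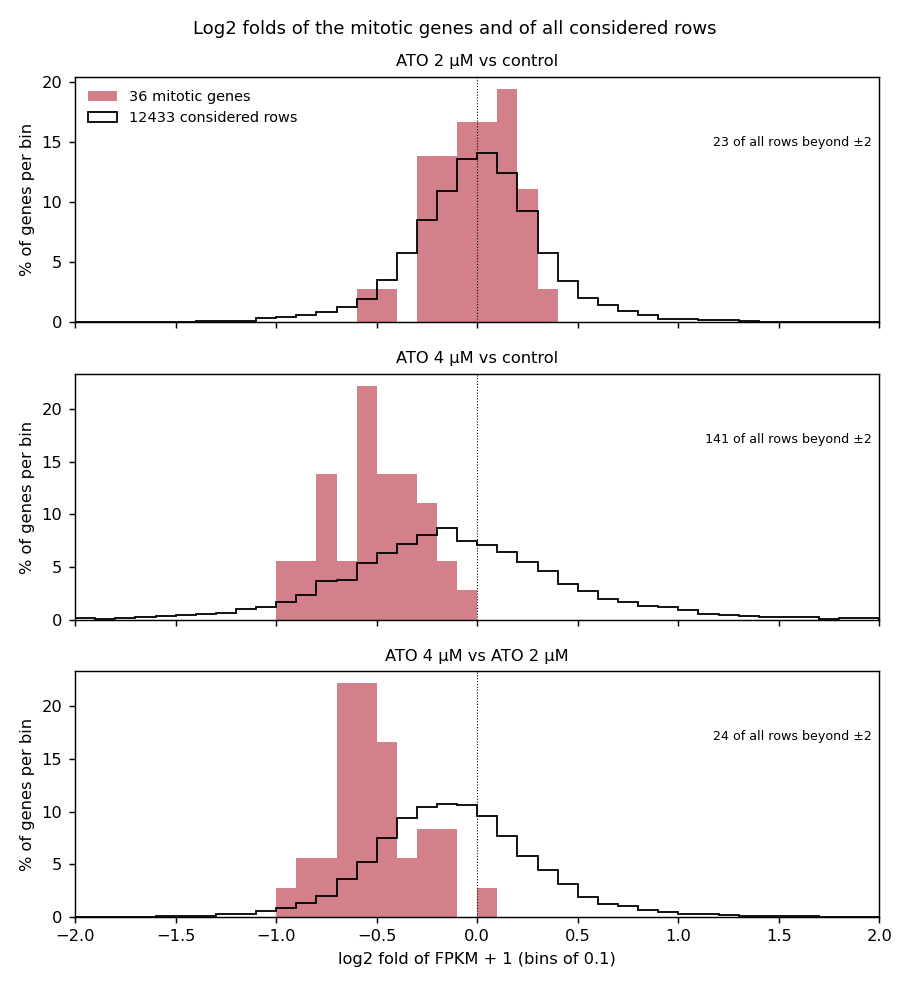
Percent of genes per bin of log2 fold (bins of 0.1) for the 36 members (filled) and all 12433 considered rows (line), in each comparison. At 2 µM the filled bars lie around the peak of the line, with medians of 0.00056 and 0.01. At 4 µM against control they lie below 0, with medians of -0.50 for the members and -0.13 for all rows, although TTK and ANLN cross 0 under other scalings.

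The kinase CDK1 and its cyclins had the same order of levels in each library. CDK1 had 27.6 FPKM in control cells, 30.4 FPKM at 2 µM and 21.3 FPKM at 4 µM. CCNA2, the cyclin of S phase and early mitosis, had 53.3, 57.7 and 40.5 FPKM at these doses. CCNB1, which encodes the main mitotic cyclin, had 73.2 FPKM in control cells, 84.4 FPKM at 2 µM and 52.5 FPKM at 4 µM, and the other B cyclin, CCNB2, 34.3, 37.8 and 23.4 FPKM. Each was highest at 2 µM and lowest at 4 µM. The log2 folds were 0.11 to 0.20 at 2 µM and -0.54 to -0.36 at 4 µM. AURKA, the kinase of spindle poles, followed the same course with 19.1, 24 and 14.9 FPKM, and its 2 µM log2 fold of 0.31 was the highest of the 36. PLK1, the Polo kinase of mitotic entry and exit, had 25.5 FPKM in control cells, 29 FPKM at 2 µM and 18.5 FPKM at 4 µM. For these 6 genes the 2 µM log2 folds were above 0 under each alternative, down to 0.02 for CDK1 and 0.04 for CCNA2 after the correction for length and GC content.

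The chromosomal passenger complex corrects wrong attachments, with AURKB as its kinase, INCENP as its scaffold, and survivin (BIRC5) and borealin (CDCA8) as its targeting subunits. AURKB had 18.4 FPKM in control cells, 19.4 FPKM at 2 µM and 10.4 FPKM at 4 µM (-0.77 as log2 fold at 4 µM). BIRC5 had 22.2, 24.4 and 15.2 FPKM (-0.52 at 4 µM). CDCA8 had 28.9 FPKM in control cells, 33.9 FPKM at 2 µM and 25.3 FPKM at 4 µM (-0.19). The scaffold did not share the 2 µM values of its partners: INCENP had 25.5, 21.6 and 19.5 FPKM, log2 folds of -0.23 at 2 µM and -0.37 at 4 µM. INCENP also has the longest transcript of the complex (3964 bases). After the correction for length and GC content its 2 µM value was -0.21. Of the subunits, the kinase thus had the lowest 4 µM value relative to control.

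Checkpoint genes spanned nearly the whole range of the 36. MAD2L1, whose product MAD2 binds and holds back CDC20, had 19.9 FPKM in control cells, 19.6 FPKM at 2 µM and 10.0 FPKM at 4 µM (-0.02 and -0.92 as log2 folds). TTK, the kinase MPS1 that starts checkpoint signalling, had 17.1, 18.3 and 16.2 FPKM, and its log2 fold of -0.07 at 4 µM was the nearest to 0. The 4 µM difference was thus large for the inhibitor and small for the upstream kinase. CDC20, the APC/C activator that the checkpoint blocks, had 52.7 FPKM in control cells, 52.7 FPKM at 2 µM and 31.7 FPKM at 4 µM (-0.71). BUB1B, which encodes the checkpoint protein BUBR1, had 35.6, 31.2 and 21.2 FPKM (-0.72). Its relative BUB1, a kinetochore kinase, had 16.2, 18.5 and 13.2 FPKM (-0.28).

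Kinetochore genes differed in their course with dose. CENPF, a large protein of the outer kinetochore, had 62.0 FPKM in control cells and 44.2 FPKM at 2 µM, with 44.4 FPKM at 4 µM, so its values were alike at both doses as deposited (log2 folds of -0.48 and -0.47). They were -0.49 and -0.32 after median-of-ratios scaling, -0.45 and -0.29 after upper-quartile scaling, and -0.31 and -0.45 after the correction for length and GC content. CENPE, the kinetochore kinesin, had 15.2, 13.4 and 11.3 FPKM (-0.40 at 4 µM). CENPA, the histone H3 variant that marks centromeres, had 15 FPKM in control cells, 18.3 FPKM at 2 µM and 12.6 FPKM at 4 µM (-0.23 at 4 µM). NDC80 and NUF2 encode a dimer that grips microtubules, and their 4 µM log2 folds were -0.44 and -0.68. NDC80 had 8.24, 8.60 and 5.81 FPKM, and NUF2 27.3, 25.7 and 16.6 FPKM. The annotation places RGS5 (672, 678 and 551 FPKM) on the opposite strand across NUF2 and SLC35F6 (12.3, 17.8 and 22.2 FPKM) on the same strand across CENPA. Whether counting used strand is not given in the sources used here, so the values of NUF2 are uncertain. Strand could not separate CENPA from SLC35F6, so the values of CENPA are uncertain as well. These overlaps are of whole gene spans, and overlap of exons was not examined.

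Among the kinesins, KIF20A, a motor of cytokinesis also called MKLP2, had 45.0 FPKM in control cells, 39.1 FPKM at 2 µM and 25.2 FPKM at 4 µM (-0.81 as log2 fold at 4 µM). KIF11, the motor that pushes spindle poles apart, had 32.5, 27.7 and 21.3 FPKM (-0.59). KIF4A, a chromosome-bound kinesin, had 19.7, 17.4 and 12.6 FPKM (-0.61). These 3 motors were lower at each step of dose. KIF23, the central spindle kinesin MKLP1, had 13.6, 14.0 and 9.03 FPKM (-0.54). KIF2C, which takes microtubules apart, had 30.9 FPKM in control cells, 30.9 FPKM at 2 µM and 25.2 FPKM at 4 µM (-0.29), the smallest of the 5. KIF20A overlaps BRD8 and CDC23, KIF4A overlaps PDZD11, CCNA2 overlaps EXOSC9 and ANLN overlaps KIAA0895, each on the opposite strand. The limit from unknown strand use given for NUF2 holds for them too. The retrocopy KIF4B and other listed copies and pseudogenes of members, 8 in all, reached at most 0.603 FPKM.

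Spindle assembly and cytokinesis genes included some of the largest and smallest 4 µM values. DLGAP5, which stabilises kinetochore fibres, had 34.3 FPKM in control cells, 31.6 FPKM at 2 µM and 18.5 FPKM at 4 µM (-0.86 as log2 fold at 4 µM). HMMR, a spindle pole protein, had 28.4, 26.7 and 17.1 FPKM (-0.70). TPX2, the activator of Aurora A on the spindle, had 82.5, 83.5 and 57.8 FPKM (-0.51). As deposited, the activator and AURKA (-0.34) were thus both lower at 4 µM only, but the 2 µM sign of TPX2 (0.02) changed in some settings. NUSAP1, a microtubule binder, had 40.8, 40.6 and 28.7 FPKM (-0.50). PRC1, which bundles microtubules of the central spindle, had 33.1, 30.5 and 25.7 FPKM (-0.35). ANLN, the scaffold anillin of the contractile ring, varied little over the doses, with 27.5 FPKM in control cells, 26.0 FPKM at 2 µM and 24.3 FPKM at 4 µM (-0.17, and 0.01 with upper-quartile scaling). ECT2, which activates the GTPase RhoA at the cleavage site, had 33.0, 27.6 and 22.2 FPKM (-0.55).

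At anaphase, separase (ESPL1) cuts the cohesin rings once its inhibitor securin (PTTG1) has been marked by APC/C, with UBE2C as the conjugating enzyme. ESPL1 had 11.5 FPKM in control cells, 9.30 FPKM at 2 µM and 6.37 FPKM at 4 µM (-0.28 and -0.76 as log2 folds). PTTG1 had 23.4, 28.3 and 15.8 FPKM (0.26 and -0.54). UBE2C had 68.5, 82.7 and 58.0 FPKM (0.27 and -0.24). The protease gene and its inhibitor's gene thus had opposite signs at 2 µM and the same sign at 4 µM. Their transcripts also differ in length (6623 bases for ESPL1 and 1070 for PTTG1), and 2 µM values moved with length, as given below. TOP2A, which untangles sister chromatids, had 107 FPKM in control cells, 73.4 FPKM at 2 µM and 54.0 FPKM at 4 µM. The values of -0.54 at 2 µM and -0.97 at 4 µM on the log2 scale were the lowest of the 36 in both comparisons with control. At 4 µM its level was 0.51 times the control level, against 0.50 times for MAD2L1. The order of TOP2A and MAD2L1 at 4 µM thus rests on the pseudocount.

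**Figure D4:**
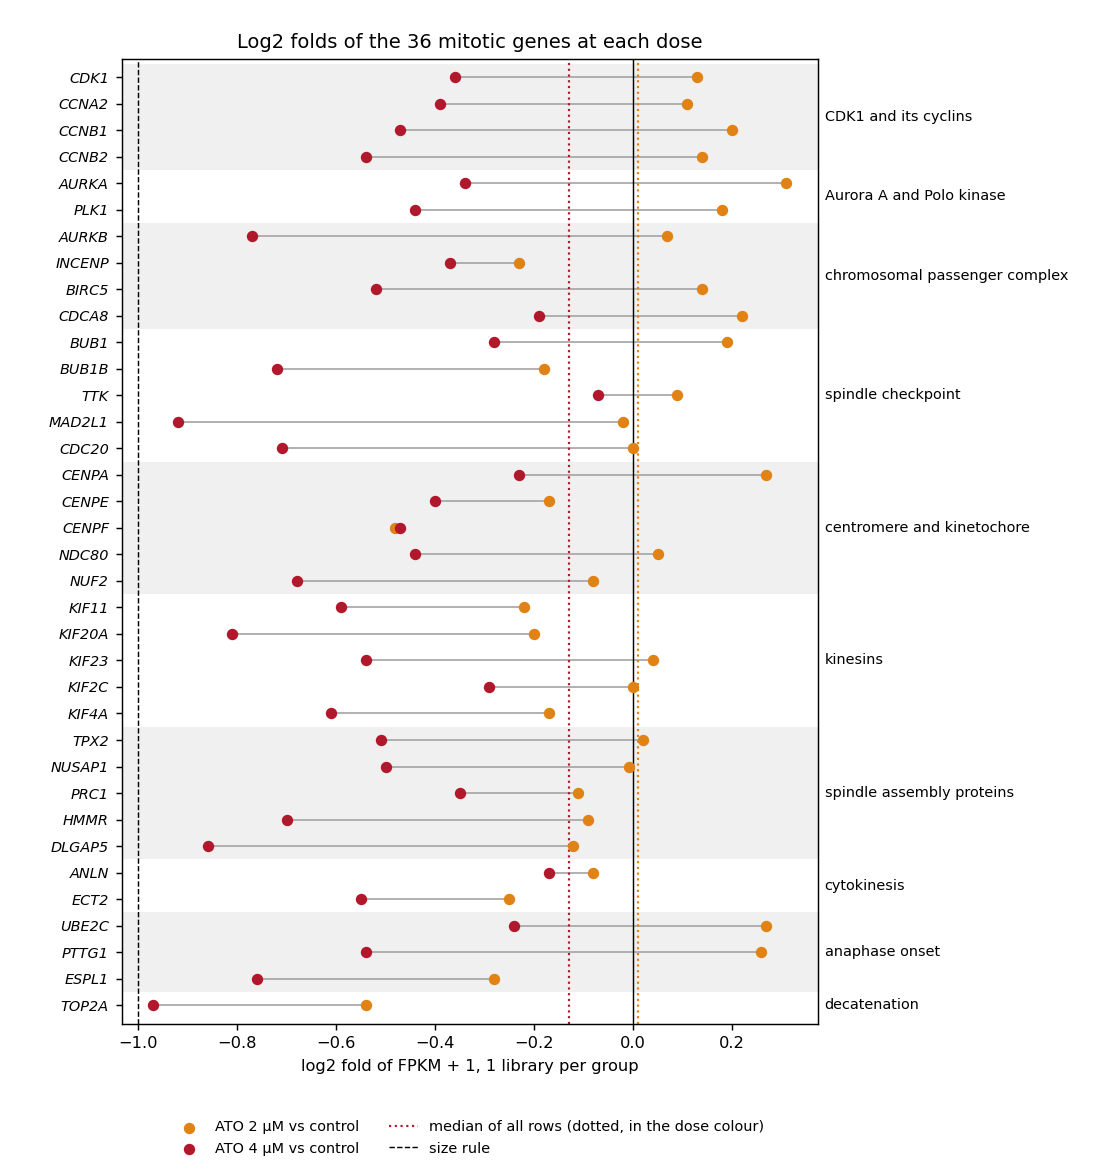
Log2 folds of FPKM + 1 against control for each member at 2 µM and 4 µM, grouped by role, with the size rule at -1 and dotted medians of all rows (0.01 and -0.13). The 2 µM points run from -0.54 (TOP2A) to 0.31 (AURKA) on both sides of 0, and the 4 µM points from -0.97 to -0.07, where TTK and ANLN cross 0 under other scalings.

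The sign at 2 µM was not firm for members near 0, since AURKB, NDC80, KIF2C, TPX2, MAD2L1, CDC20 and NUSAP1 changed it in some settings. By their levels, 18 members were highest at 2 µM and lowest at 4 µM, 17 were lower at each step of dose, and CENPF was lowest at 2 µM by a small margin. Transcript length moved with this split. The 18 members above 0 at 2 µM had GENCODE 29 transcripts of 914 to 3725 bases (median 2358), and the 18 below 0 had 1777 to 10307 bases (median 4217). Across the 36 members, Spearman's rho between the length of the longest coding transcript and the 2 µM log2 fold was -0.76, against -0.25 across 11363 considered rows with a transcript. The points are genes of the same libraries and are not independent. With the median length of a gene's coding transcripts in place of the longest, rho was -0.35 for the members and -0.16 for all rows. With rows split by length into 4 groups of nearly equal size, the longest (over 5176 bases) had a median log2 fold of -0.10 at 2 µM, and its 5 members, MAD2L1, CENPE, CENPF, ESPL1 and TOP2A, a median of -0.28. The shortest (up to 2101 bases) had a median of 0.10, and its 7 members 0.13. At 4 µM against 2 µM rho with the longest coding transcript was 0.58 for the members and 0.33 for all rows. With the median length it was 0.06 and 0.19. At 4 µM against control the members' rho with length was -0.18, and that of all rows 0.09. The 5 longest members had a median of -0.76 there, against -0.54, -0.47 and -0.51 for the members of the shorter groups, shortest first, while the median of all rows was -0.07 in the longest group and -0.20 in the shortest. After a correction for length and GC content, chosen after the trend was seen, the members' medians were -0.05 at 2 µM and -0.44 at 4 µM against control. At 4 µM against 2 µM the corrected median was -0.37. The part of length in the 2 µM differences, or in those between the doses, beyond this correction was not tested.

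**Figure D5:**
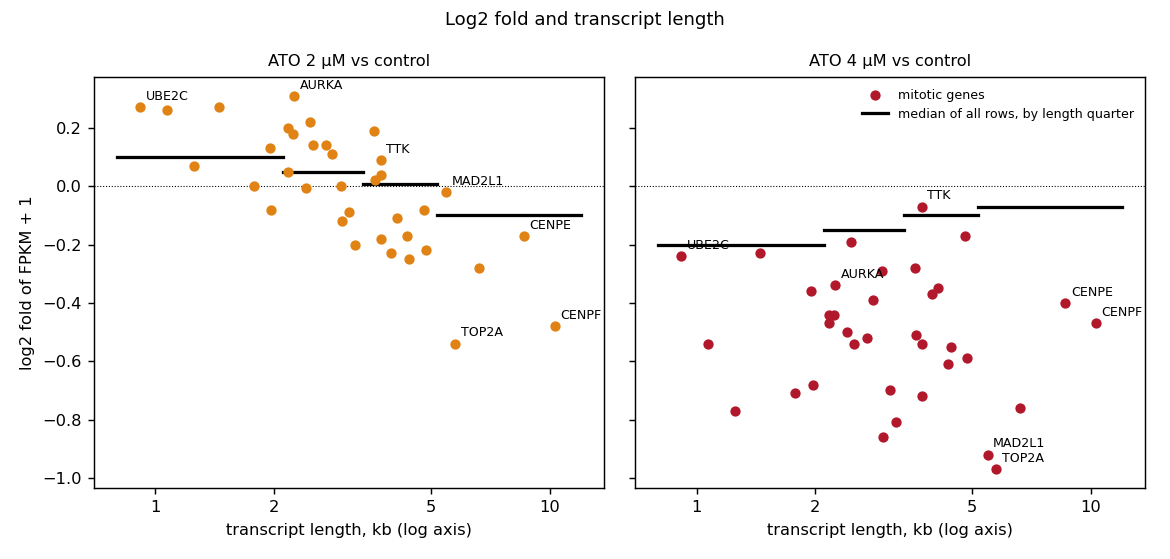
Log2 fold of each member against the length of its longest coding transcript (kb, log axis) at 2 µM and at 4 µM against control, with the median of all considered rows in each of 4 groups of length as bars. At 2 µM short members such as UBE2C (0.27) lie above 0 and long ones such as TOP2A (-0.54) and CENPF (-0.48) below it. At 4 µM rho was -0.18, and the 5 longest members had a median of -0.76.

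Regulators of these genes were read beside them. FOXM1, which drives G2 and mitosis genes, had 41.3 FPKM in control cells, 35.1 FPKM at 2 µM and 24.6 FPKM at 4 µM (-0.72 as log2 fold at 4 µM). MYBL2, the gene of B-MYB, had 63.8, 66.2 and 59.2 FPKM (-0.11, close to the median of all rows), and LIN9, of the MuvB core, 5.18, 5.67 and 4.40 FPKM (-0.20). CDKN1A, which encodes the CDK inhibitor p21, had 4.93, 15.8 and 46.6 FPKM at the 3 doses, control first, with log2 folds of 1.5 and 3.01. CDKN1A was past the size rule at 2 µM, where the members' median was 0.00056. The part of CDKN1A in the members' values was not tested. Over the list of DREAM, MuvB, FOXM1 and NF-Y genes, 13 of 17 (76.5%) were below 0 at 4 µM, against 59.9% of all rows. The median was -0.20, and -0.07 and -0.04 after median-of-ratios and upper-quartile scaling. TFDP1, the E2F partner, was lower past the size rule as deposited (-1.06, with 14.1 FPKM at 4 µM against 30.5 FPKM in control cells). It did not pass with a pseudocount of 5, after either scaling between libraries or after the correction for length and GC content. The repressor E2F5 had -0.74, and LIN54, the MuvB subunit that reads the CHR, had 0.89. LIN54 was higher past the size rule with a pseudocount of 0.1, as TPM and after either scaling between libraries. At 4 µM the 24 members with a CHR match had a median log2 fold of -0.54 (range -0.97 to -0.17). The 7 without TTTGAA or TTCGAA had -0.47 (range -0.81 to -0.29), so the ranges overlapped. Members without a match may hold a form of the CHR that was not searched.

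Other genes of mitosis were counted in lists, to be read against the 59.9% of all rows below 0 and the 9.46% past the size rule at 4 µM. Of 20 further mitotic kinesins, kinases and phosphatases 18 (90%) were below 0 at 4 µM (median -0.45) and 0 passed the size rule, with PKMYT1 at -0.93, KIF15 at -0.72 and BORA at -0.71. MKI67, the gene of the proliferation marker Ki-67, had 49.8 FPKM in control cells, 32.5 FPKM at 2 µM and 29.1 FPKM at 4 µM (-0.60 and -0.76). Of 19 other outer kinetochore and checkpoint genes 14 (73.7%) were below 0 (median -0.48), led by SKA3 (-0.94), SKA2 (-0.79), KNL1 (-0.78) and SPC25 (-0.76). Of 17 APC/C genes 16 (94.1%) were below 0 (median -0.36), with ANAPC1 at -0.93, ANAPC4 at -0.81, ANAPC5 at -0.78 and the inhibitor gene FBXO5 at -0.70. Of 15 centrosome and spindle pole genes 14 (93.3%) were below 0 (median -0.35), with TUBG1 at -0.77, CKAP5 at -0.69, NUMA1 at -0.56 and TACC3 at -0.46. Of 21 condensin and cohesin genes 19 (90.5%) were below 0, and the condensin gene NCAPD2 passed the rule (-1.02) as deposited but not with a pseudocount of 5, as TPM, after either scaling between libraries or after the correction for length and GC content. The cohesin genes SMC3 and SMC1A and the condensin gene NCAPD3 had -0.72, -0.51 and -0.70, and the median of the list was -0.21. After median-of-ratios and upper-quartile scaling these medians came nearer to 0, at -0.30 and -0.27 for the kinesins and kinases, -0.37 and -0.34 for the outer kinetochore and -0.22 and -0.19 for APC/C. They were -0.21 and -0.17 for the centrosome and -0.07 and -0.04 for condensin and cohesin. At 2 µM 0 genes of any of these lists passed the size rule, and their medians ran from -0.13 to 0.02.

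The cells carried the markers of their label. All 14 neuroblastoma markers were at 1 FPKM or more in control cells and 13 at each dose, and their summed level was 1500 FPKM in control cells, 848 FPKM at 2 µM and 420 FPKM at 4 µM. MYCN was the highest of them in control cells, with 832, 412 and 197 FPKM. Fibroblast markers, 5 of 8 at 1 FPKM or more, summed to 177, 104 and 60.4 FPKM. Leukocyte markers summed to 2.24, 8.75 and 7.04 FPKM, epithelial markers to 3.42, 3.03 and 2.76 FPKM and endothelial markers to 2.54, 1.88 and 1.70 FPKM, and ITGAM and CDH1 were listed at 0 in control cells. The part of these shifts in the members' values was not tested.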

How the data were processed

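TruSeq paired-end sequencing was used, per the labels' protocols. Per the file headers, the authors deposited FPKM. Neither an aligner nor a counter is given in the sources used here. Mouse builds (GRCm38 and mm10) stand in the submitters' processing notes, while the rows carry human symbols, so the build behind the table is uncertain. Overlaps between genes were read from GENCODE 29 positions, joined to the rows by gene name. FPKM values were used as deposited, with a pseudocount of 1. Low FPKM times transcript length clustered at 0.0279 (control), 0.0271 (2 µM) and 0.0281 (4 µM), the worth of 1 counted unit, so relative depths were 1.00, 1.03 and 0.993. With 1 library per group no test was possible. The members and lists were chosen with earlier results of these data known. All members were named, and from each of 8 neighbouring lists the 4 genes farthest from a log2 fold of 0 at 4 µM, although not every gene covered by this rule is reported here. Lengths came from GENCODE 29 and promoters from RefSeq (GRCh38.p14). The calculation was tested on simulated data, but without a pseudocount and with low starting values raised. It was therefore not tested at the settings used for the folds here. Python 3.11.15, pandas 2.3.3, numpy 2.4.6 and scipy 1.17.1 were used. Pseudocounts of 0.1 and 5, other filters and scalings were tried.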

Additional observations from a re-analysis of the deposited data

How the results depend on the processing

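At 4 µM against control the members' median log2 fold of -0.50 became -0.35 (median-of-ratios scaling) and -0.31 (upper-quartile scaling), whereas the median of all rows (-0.13) became -0.0033 and 0.03, or -0.01 without a filter. At 4 µM against 2 µM the members' median became -0.35 with either scaling and -0.37 with the correction for length and GC content, and the median of all rows became 0.0079, 0.0075 and -0.02, or -0.0047 without a filter. At 2 µM against control the members' median (0.00056) was -0.0063 after median-of-ratios scaling, -0.03 as TPM and -0.05 with the correction, and that of all rows was -0.04 as TPM and -0.00048 with the correction. The count of members past the size rule stayed at 0 in every setting with a size of 1, and with a size of 0.5 it was 18 at 4 µM, 1 at 2 µM and 19 between the doses, of which the last was 8 when combined with either scaling or the correction. The rows past the size rule, 1176 at 4 µM against control, 256 at 2 µM against control and 308 at 4 µM against 2 µM, numbered in the same order 1949, 506 and 735 with a pseudocount of 0.1, 390, 61 and 77 with 5, 474, 103 and 134 at a mean of at least 10 FPKM, 2586, 919 and 1069 as TPM, and 4365, 1562 and 2572 at a size of 0.5. Higher rows made up 44.3% of those past the rule at 4 µM against control, and 60.1% and 63.7% after median-of-ratios and upper-quartile scaling, 56.2% with a pseudocount of 5, 54.9% at a mean of at least 10 FPKM and 56.5% with the correction. At 2 µM against control they made up 56.2%, and 39.9% as TPM, 72.1% with a pseudocount of 5 and 70.9% at a mean of at least 10 FPKM. Between the doses they made up 46.1%, and 71.4%, 71.5% and 57.2% after the same scalings and as TPM, 61.0% with a pseudocount of 5, 74.4% with the correction and 30.9% at a size of 0.5. The median of the inner centromere list at 4 µM against control turned to 0.05 and 0.09 with these scalings and to 0.02 with the correction, and between the doses to 0.006 with the correction, while that of condensin and cohesin between the doses turned to 0.02 with either scaling. Of 1074 member log2 folds over all settings 854 moved by at most 0.1 and 220 by more. The 854 include settings that cannot move a member's log2 fold, so they overstate its stability. Those settings are the other filters, the restriction to rows with a gene symbol and the size of 0.5. Signs of values near 0 could change within 0.1. The cause was not tested. No paired analysis was possible because each group has 1 library. Single cultures limit every comparison, since the spread between cultures is unknown.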

Other observations

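Genes of G1 and S phase entry, the stage before the one described above, included larger differences at 4 µM than any of the 36 mitotic genes. Of 23 considered genes 17 (73.9%) were below 0 at 4 µM against control, against 59.9% of all rows, and 3 (13%) passed the size rule, against 9.46%. The median was -0.52, and -0.38 and -0.34 after median-of-ratios and upper-quartile scaling. MCM7, a subunit of the replicative helicase, had 110 FPKM in control cells, 55.8 FPKM at 2 µM and 38.3 FPKM at 4 µM (-0.96 and -1.49 as log2 folds). MCM3 had -1.14, E2F2 -1.03 and CCNE1, the gene of cyclin E, -0.98 (1.30 FPKM at 4 µM against 3.53 FPKM in control cells). With median-of-ratios or upper-quartile scaling 1 gene of the list passed the rule.

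The inner centromere network had 14 of 19 genes (73.7%) below 0 at 4 µM against control, against 59.9% of all rows, and 5 of 19 (26.3%) at 2 µM, against 48.4%. Its medians were -0.10 at 4 µM, which turns positive under scaling, and 0.11 at 2 µM, which was 0.38 at a mean of at least 10 FPKM and 0.02 after the correction for length and GC content. HJURP, the chaperone that loads CENPA onto centromeres, had 20 FPKM in control cells, 30.3 FPKM at 2 µM and 30.5 FPKM at 4 µM (0.58 as log2 fold at both doses), where CENPA had 0.27 at 2 µM and -0.23 at 4 µM. CENPM and CENPH had -0.84 and -0.75 at 4 µM against control.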
